A study of Mus musculus with 12 samples.

Results

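Hnf4a and Hnf4g encode the HNF4 transcription factors of the mouse, nuclear receptors that were followed here through kidney tumors driven by loss of the Hippo pathway kinases Lats1 and Lats2. They were taken by gene identifier as 2 of the 24432 genes of an RNA-seq table with 12 libraries in 4 groups of 3. Lung metastases and primary kidney tumors came from Slc34a1CreERT2;Lats1/2flox/flox mice of mixed background, which received 3 tamoxifen injections at 1 month of age and were dissected 4 months after injection. Their Cre is driven by Slc34a1, which encodes a phosphate carrier made in the proximal tubule, so deletion starts in cells that express it. Allograft tumors were dissected from NOD/scid hosts 6 weeks after Lats1-/-;Lats2-/- cells of mixed source had been placed under the renal capsule at a host age of 6 to 8 weeks. The NOD/scid host lacks T and B cells, and the sources used here do not give whether the cells were 1 clone. Proximal tubule cells were sorted from kidneys of adult Slc34a1CreERT2;Lats1c/c;Lats2c/+;RosaTomato mice, which carry conditional alleles of Lats1 on both copies and of Lats2 on 1 copy. The sources used here do not give whether Cre had been induced in them. The labels do not tie replicates to separate animals, so p-values measure the spread between these libraries, which may be technical.

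HNF4A binds DNA as a dimer without a partner such as RXR and holds active the genes of glucose synthesis, lipid transport, drug transport and bile acid metabolism in liver, gut, pancreas and the proximal tubule of the kidney. HNF4G is its closest relative and recognizes the same DNA element. The kidney and the liver mainly use the downstream promoter of Hnf4a, called P1. The upstream promoter, P2, is known from pancreas and from embryonic tissue.

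Hnf4a (ENSMUSG00000017950) lies at chr2:163506808-163572910 on the plus strand of GRCm38, and GENCODE M21 gives it 5 transcripts of 431 to 4362 bases. Hnf4g (ENSMUSG00000017688) lies at chr3:3508030-3658052 on the plus strand, with 2 transcripts of 2224 and 2327 bases. An antisense gene, Hnf4aos, runs on the minus strand from between the promoters of Hnf4a across P2, at chr2:163493807-163541720. The start regions of Hnf4a and Hnf4aos are shown because both genes fell in metastases and allograft tumors, as given below. Each window is from RefSeq on GRCm38.p6 and holds 250 bases before and 50 bases after an annotated start, with those after the start in capitals. The first is P2 at chr2:163506607-163506906, the second P1 at chr2:163546905-163547204, and the third Hnf4aos at chr2:163541672-163541971 on the minus strand.
Hnf4a P2: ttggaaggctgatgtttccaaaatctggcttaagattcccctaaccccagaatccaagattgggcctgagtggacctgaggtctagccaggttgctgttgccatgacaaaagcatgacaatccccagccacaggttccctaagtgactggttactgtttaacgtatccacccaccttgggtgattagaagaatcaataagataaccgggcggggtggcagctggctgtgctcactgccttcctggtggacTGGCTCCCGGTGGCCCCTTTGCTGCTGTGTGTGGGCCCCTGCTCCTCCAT
Hnf4a P1: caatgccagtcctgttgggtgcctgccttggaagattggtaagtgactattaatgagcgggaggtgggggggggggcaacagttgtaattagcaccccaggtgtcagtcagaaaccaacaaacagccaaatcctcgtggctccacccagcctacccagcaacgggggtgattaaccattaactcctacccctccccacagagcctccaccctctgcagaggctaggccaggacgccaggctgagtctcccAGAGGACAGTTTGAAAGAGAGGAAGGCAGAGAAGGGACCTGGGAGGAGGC
Hnf4aos: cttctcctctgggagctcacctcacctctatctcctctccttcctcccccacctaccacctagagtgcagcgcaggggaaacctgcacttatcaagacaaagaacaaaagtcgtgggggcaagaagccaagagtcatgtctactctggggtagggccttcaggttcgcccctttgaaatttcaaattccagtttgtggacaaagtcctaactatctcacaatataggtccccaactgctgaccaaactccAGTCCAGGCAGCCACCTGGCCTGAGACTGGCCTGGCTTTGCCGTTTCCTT
The values are per gene, so reads from P1 and P2 transcripts were not separated. Of the 2 HNF4 genes, 1 had a window in this table.

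The HNF4 element CAAAGTCCA was searched on both strands, and it stood in 0.475% of all 32851 windows. None of the 3 windows above held it, which says only that these letters are not there. It was found in 1 of 29 windows of known HNF4A target genes, that of Cyp8b1, and in 1 of 16 windows of proximal tubule marker genes, that of Pdzk1. Pdzk1 encodes a scaffold protein of the brush border. Its window at chr3:96829815-96830114 on the plus strand is shown as the match in a marker gene with high levels here, with the element in capitals.
Pdzk1: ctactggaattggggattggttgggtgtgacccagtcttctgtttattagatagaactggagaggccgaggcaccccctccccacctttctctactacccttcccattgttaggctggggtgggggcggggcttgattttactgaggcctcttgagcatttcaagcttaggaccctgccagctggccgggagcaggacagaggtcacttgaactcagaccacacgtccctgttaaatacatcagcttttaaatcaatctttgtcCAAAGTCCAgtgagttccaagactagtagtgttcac
The direct repeat of AGGTCA with 1 base between the copies, searched likewise, was found in 0.0396% of all windows and in none of the target, marker or Hnf4a windows. GGAATG, the element bound by the TEAD factors through which the Hippo pathway acts, was found in 14.7% of all windows, in 5 of the 29 target windows (17.2%), in none of the 16 marker windows and in none of the 3 windows above.

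Hnf4a was the most abundant of 49 nuclear receptor genes in proximal tubule cells and in primary tumors 2 and 3. It ranked 14th in primary tumor 1 and 30th in allograft tumor 2. In metastases and in allograft tumors 1 and 3 it was near the floor of detection. In FPKM, fragments scaled by transcript length and library total, Hnf4a stood at 0.0696, 0.242 and 0.0641 in lung metastases 1 to 3. Allograft tumors 1 to 3 had 0.232, 1.23 and 0.213 FPKM of Hnf4a. Primary tumors 1 to 3 had 9.10, 167 and 54.4 FPKM of Hnf4a, against 203, 229 and 228 FPKM in the proximal tubule libraries. No tumor library reached the lowest proximal tubule library, and all 6 metastases and allograft tumors lay below the lowest primary tumor. Of all genes tested, 20.7% were likewise lower without overlap in metastases, 19.7% in allograft tumors and 5.52% in primary tumors against proximal tubule cells, and 20.1% in metastases and 22.5% in allograft tumors against primary tumors. The primary tumors were the spread group, with a mean and SD of 76.8 ± 81.3 FPKM, against 220 ± 14.6 FPKM in proximal tubule cells (n = 3 each). The metastases and the allograft tumors overlapped, at 0.125 ± 0.101 and 0.560 ± 0.584 FPKM (SD, n = 3 each).

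Hnf4g, the lower of the pair in proximal tubule cells, fell by less. It stood at 0.546, 0.789 and 0.434 FPKM in metastases 1 to 3 and at 0.310, 0.512 and 1.37 FPKM in allograft tumors 1 to 3. Primary tumors 1 to 3 had 2.54, 6.28 and 2.94 FPKM of Hnf4g, against 5.82, 4.04 and 6.10 FPKM in proximal tubule cells. The primary tumors overlapped with proximal tubule cells, since primary tumor 2 had the highest Hnf4g of all libraries. All metastases and allograft tumors lay below every primary tumor and every proximal tubule library. Group means were 0.590 ± 0.181 FPKM in metastases, 0.732 ± 0.564 in allograft tumors, 3.92 ± 2.05 in primary tumors and 5.32 ± 1.11 in proximal tubule cells (SD, n = 3 each).

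**Figure D1:**
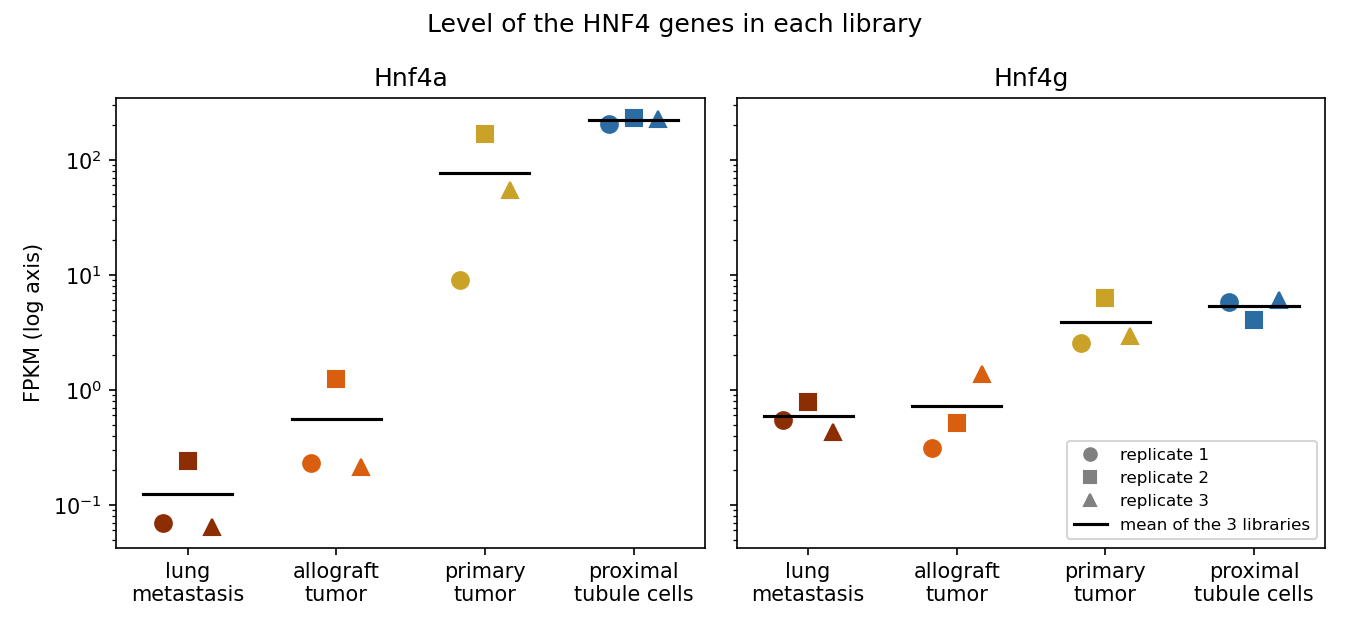
FPKM of Hnf4a and Hnf4g on a log axis in each of the 12 libraries, with 1 symbol per replicate and a line at the mean of each group of 3. Hnf4a spans 0.0641 to 229 FPKM and Hnf4g 0.310 to 6.28 FPKM, and in each panel the metastases and allograft tumors lie below every primary tumor and every proximal tubule library.

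Changes were tested with limma on log2(FPKM + 1) over 16313 genes, with p adjusted over all of them, and are log2 ± SE. This scale understates the change of genes with low values. In metastases, Hnf4a fell by 7.62 ± 0.76 against proximal tubule cells (adjusted p = 1.71e-05), and Hnf4g changed by -1.98 ± 0.30 (adjusted p = 2.22e-04). In this comparison 14.4% of all genes were called lower, and Hnf4a was number 35 and Hnf4g number 891 counted from the largest fall. The mean of Hnf4a was 1758.4-fold lower in metastases than in proximal tubule cells, and that of Hnf4g was 9.02-fold lower. In allograft tumors, Hnf4a changed by -7.21 ± 0.76 (adjusted p = 2.09e-05) and Hnf4g by -1.90 ± 0.30 (adjusted p = 2.56e-04), where 16.9% of all genes were called lower.

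Primary tumors showed the smaller change. Hnf4a was lower than in proximal tubule cells by a log2 change of -2.28 ± 0.76 (adjusted p = 0.0281), where 4.9% of all genes were called lower. The call was lost in a fit of these 2 groups alone (adjusted p = 0.108) and when any 1 proximal tubule library was left out (adjusted p = 0.0593 to 0.0683). Its size rested on which tumors were taken: it was -1.19 without primary tumor 1 and -4.45 without primary tumors 2 and 3, called in each case. With primary tumor 1 alone, that library is assumed to vary like those of the other groups, which give all of the spread. Hnf4g changed by -0.42 ± 0.30 (adjusted p = 0.257), which did not pass. It did pass, at -0.74 (adjusted p = 0.0362), without primary tumor 2, at -1.31 (adjusted p = 0.0019), after rescaling each library to the same summed FPKM (TPM rescaling), at -0.97 (adjusted p = 0.0185) with median-of-ratios scaling and at -1.36 (adjusted p = 0.0085) with quantile normalization.

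Between the tumors, Hnf4a was lower in metastases than in primary tumors by a log2 change of -5.34 ± 0.76 (adjusted p = 9.91e-04) and Hnf4g by -1.56 ± 0.30 (adjusted p = 0.00604), where 9.59% of all genes were called lower. Allograft tumors against primary tumors gave -4.93 ± 0.76 for Hnf4a (adjusted p = 8.75e-04) and -1.48 ± 0.30 for Hnf4g (adjusted p = 0.00354), where 21.1% were called lower. Against primary tumor 1 alone, under the same assumption on its spread, Hnf4a gave -3.17 in metastases (adjusted p = 6.22e-04) and -2.76 in allograft tumors (adjusted p = 0.00131). Hnf4g was not called there, at -1.16 in metastases (adjusted p = 0.0932) and -1.08 in allograft tumors (adjusted p = 0.0565). Allograft tumors and metastases were not told apart for Hnf4a (0.41 ± 0.76, adjusted p = 0.751) or Hnf4g (0.08 ± 0.30, adjusted p = 0.893), where 23.7% of genes were called either way. Comparisons against proximal tubule cells share the same 3 libraries.

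The balance of the HNF4 genes also differed between groups. The ratio of Hnf4a to Hnf4g FPKM was 0.127, 0.306 and 0.148 in metastases 1 to 3 and 0.748, 2.41 and 0.155 in allograft tumors 1 to 3. It was 3.59, 26.6 and 18.5 in primary tumors 1 to 3, against 34.9, 56.6 and 37.3 in proximal tubule cells. Hnf4a was thus the lower gene of the pair in all 3 metastases and in 2 of 3 allograft tumors, and the higher gene in every primary tumor and proximal tubule library. An exact permutation test of the log2 ratio of FPKM + 1 over the 4 groups gave F = 28.2 and p = 3.90e-04 (369600 assignments). Adding 1 shrinks this ratio where both genes are low, so an equal fold fall of both genes would also move it. The test by itself therefore cannot tell unequal falls from a shared fall. The ratios of FPKM above, without the added 1, were at most 2.41 in metastases and allograft tumors and at least 3.59 in the other libraries.

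Few fragments lay behind the lowest values. From the smallest steps between values, depth was estimated at 14.5 M to 18.5 M fragments in the metastases, 11.6 M to 18 M in the allograft tumors and 13.9 M to 16.5 M in the primary tumors, against 4.79 M to 6.24 M in proximal tubule cells. At the longest transcript, Hnf4a then rested on about 6, 16 and 4 fragments in metastases 1 to 3 and on 17, 97 and 11 in allograft tumors 1 to 3. Hnf4g rested on 15 to 28 fragments in the metastases and on 12 to 37 in the allograft tumors. The fold of Hnf4a in metastases is therefore known only roughly.

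The libraries also differed in their cells. The summed level of 14 proximal tubule markers was 198 to 249 FPKM in metastases, 67.9 to 138 in allograft tumors and 408 to 8539.5 in primary tumors, against 7985.3 to 9593.5 FPKM in proximal tubule cells, where no marker was at 0. Aqp1, a water channel also made by vessels, gave 141 to 180 FPKM of the sum in metastases. Of the 14 markers, 13 fell in metastases, 14 in allograft tumors and 7 in primary tumors, where 14.4%, 16.9% and 4.9% of all genes were called lower. The 5 lung epithelium markers summed to 11872.3 to 18950.6 FPKM in metastases, 2.54 to 9.59 in allograft tumors and 3.32 to 7.99 in primary tumors, against 0.242 to 0.559 FPKM in proximal tubule cells, with 4 of 5 at 0 in each sorted library. The 6 leukocyte markers summed to 4483.0 to 5169.2 FPKM in metastases, 1281.4 to 4890.5 in allograft tumors and 342 to 2099.7 in primary tumors, against 1.91 to 3.01 in proximal tubule cells. The 7 markers of fibroblasts and endothelium gave 518 to 736, 929 to 2302.3 and 176 to 901 FPKM in the same tumor groups, against 20.2 to 32.5 in proximal tubule cells. The 8 markers of the distal nephron and collecting duct reached 310 to 4375.8 FPKM in primary tumors, against 300 to 528 in proximal tubule cells, and the 4 podocyte markers 60.1 to 102, against 14 to 20.5. The part of these cells in the changes of Hnf4a and Hnf4g was not tested. In bulk samples, fewer cells of a type and less RNA per cell cannot be told apart.

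Other features moved with the groups as well. Xist stood at 0.323 and 0.374 FPKM and Ddx3y at 30 and 20.5 FPKM in primary tumors 2 and 3, while Xist was 141 to 183 FPKM and Ddx3y 0 in proximal tubule cells, so these tumors and the sorted cells differed in sex. Primary tumor 1, the one with the lowest Hnf4a of the 3, had 163 FPKM of Xist and 0.112 FPKM of Ddx3y, so sex and Hnf4a split the primary tumors alike. Allograft tumors held both transcripts, with 48.9 to 127 FPKM of Xist and 8.94 to 22.8 FPKM of Ddx3y. Metastases had 87.9 to 96.9 FPKM of Xist and 0.133 to 0.259 FPKM of Ddx3y, a pattern like that of the sorted cells. The metastases thus differed in sex from primary tumors 2 and 3. The part of sex in the changes was not tested. Mir6236 was listed at 317685.9 to 1082169.8 FPKM in the 9 tumor libraries, against 0 to 57.2 FPKM in proximal tubule cells. A difference in library handling and the difference between tumors and sorted cells cannot be told apart. Over all genes the median change against proximal tubule cells was 0.68 in metastases, 0.66 in allograft tumors and 0.59 in primary tumors. TPM rescaling moved these medians to -0.18, -0.37 and -0.29. They were 0.20, 0.19 and 0.08 with median-of-ratios scaling and -0.04, 0.01 and -0.12 with quantile normalization. Scaling without the 50 most abundant genes gave 0.33, 0.13 and 0.30. TPM rescaling divides by the summed FPKM of each library, which includes Mir6236. The sum was 1352265 to 2527747 FPKM in the tumor libraries, against 706093 to 738052 FPKM in proximal tubule cells. The part of Mir6236 in the shift was not tested.

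Set beside the tubule markers, the HNF4 genes kept different shares of their level in proximal tubule cells. Hnf4a was at 0.0316, 0.110 and 0.0291% of the proximal tubule mean in metastases 1 to 3, where the median proximal tubule marker was at 0.250, 0.253 and 0.347%. Hnf4g was at 10.3, 14.8 and 8.16% in the same libraries. In allograft tumors 1 to 3 Hnf4a was at 0.105, 0.561 and 0.0969%, the median marker at 0.355, 0.301 and 0.157% and Hnf4g at 5.83, 9.62 and 25.8%. Hnf4a was below the median marker in all 3 metastases and in 2 of 3 allograft tumors, and Hnf4g was above it in all 6. Single markers spread widely, from 0.00181 to 84.7% in metastasis 1 and from 0.039 to 13.4% in allograft tumor 1. Both HNF4 genes lay within the marker range in these libraries. In allograft tumor 3 Hnf4g lay above all markers, where the highest marker was at 12.8%. In primary tumors 1 to 3 Hnf4a was at 4.14, 75.9 and 24.7% and the median marker at 4.57, 98.7 and 20.7%, so that both ranked the tumors alike. Hnf4g was at 47.7, 118 and 55.3% in these tumors. It lay above all markers in primary tumor 1, where the highest marker was at 39.2%.

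**Figure D2:**
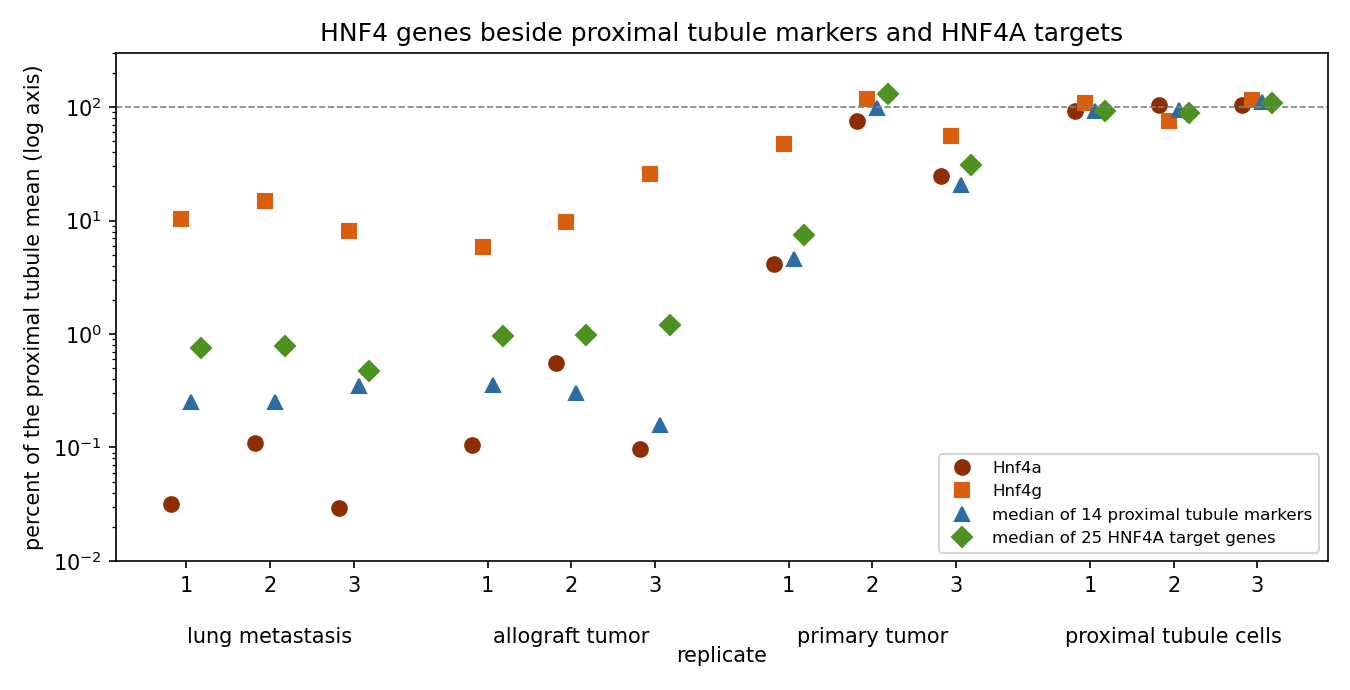
Level in each library as a percent of the proximal tubule mean, on a log axis, for Hnf4a, Hnf4g, the median of 14 proximal tubule markers and the median of 25 HNF4A target genes with a proximal tubule mean of at least 1 FPKM. The dashed line marks 100%. Hnf4g lies above the other symbols in all 6 metastases and allograft tumors, and primary tumor 2 lies near the proximal tubule libraries.

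Allograft tumor 2 stood apart. Its 4 pancreatic acinar markers summed to 1072.7 FPKM, against at most 1.44 FPKM in the other allograft tumors and 0 in proximal tubule cells. It also had the highest Hnf4a of the allograft tumors, and the target genes Pck1 (102 FPKM), Agt (6.36 FPKM) and Ambp (5.69 FPKM) were highest there among the allograft tumors. Of the 27 tested targets, 14 were highest and 5 lowest in it among the 3 allograft tumors, with Apom and Prodh2 among the lowest. The like share over all genes was not counted, so these counts cannot be read as particular to the targets. The summed FPKM of allograft tumor 2 was also the lowest of the 3, at 1352265 against 2527747 and 2113996. Pancreas is known to use HNF4A, and the part of such tissue in this library's Hnf4a was not tested. Leaving out any 1 allograft library kept the change of Hnf4a against proximal tubule cells between -7.50 and -7.06 and called.

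Genes known as HNF4A targets in liver, gut or kidney were followed next. Of 35 listed targets, all in the table, 27 passed the filter of 1 FPKM in 3 libraries. Of these, 7 passed only with the proximal tubule libraries, Slc22a8 among them, so the filter favored their fall. Slc22a7, also among the 7, needed the primary tumors as well, so this does not hold for it in primary tumors. It was at 0.153, 21.2 and 15.6 FPKM there, against 0.301, 2.74 and 1.18 FPKM in proximal tubule cells. In metastases 23 of the 27 fell and 2 rose against proximal tubule cells, with a median change of -3.17 beside 0.68 over all genes, of which 54% were called higher. In allograft tumors 23 fell and none rose, with a median of -3.03 beside 0.66 over all genes, of which 52.2% were called higher. In primary tumors 9 fell and none rose, with a median of -1.45 beside 0.59 over all genes, of which 48.2% were called higher. Without targets that passed only with 1 of the compared groups, 18 of 19 fell in metastases, 18 of 20 in allograft tumors and 6 of 20 in primary tumors, where 14.4%, 16.9% and 4.9% of all genes were called lower. The count of 9 in primary tumors was 18 after TPM rescaling, where 5407 of 16313 genes were called lower. It was 14 with quantile normalization, where 3476 genes were called lower, against 800 in the main fit. The larger counts thus came with more calls over all genes. More targets and more of all genes were also called lower without primary tumors 2 and 3. Leaving out 1 library gave 6 to 17. The 8 that were not tested, Apoa1, Apoa4, Epo, Otc, Cyp7a1, Cyp8b1, F9 and Creb3l3, were at or below 2.29 FPKM in every library.

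Pck1 and G6pc, genes of glucose synthesis, had the largest falls of the list in metastases. Pck1, whose enzyme commits carbon to glucose, was at 0.274, 0.097 and 0 FPKM in metastases and 18.5, 102 and 3.99 FPKM in allograft tumors. It was at 10.3, 1988.1 and 402 FPKM in primary tumors, against 2179.2, 1355.5 and 1171.2 FPKM in proximal tubule cells. Its change was -10.40 ± 1.59 in metastases (adjusted p = 2.24e-04) and -6.13 ± 1.59 in allograft tumors (adjusted p = 0.00554). In primary tumors Pck1 gave -2.86 ± 1.59 (adjusted p = 0.151), with overlap. G6pc, whose enzyme releases free glucose, averaged 0.0202 FPKM in metastases, 0.218 in allograft tumors and 120 in primary tumors, against 298 FPKM in proximal tubule cells. Fbp1, the enzyme of the step between them, averaged 2.28 FPKM in metastases, 2.69 in allograft tumors and 450 in primary tumors, against 704 FPKM in proximal tubule cells. G6pc and Fbp1 fell in metastases (adjusted p = 3.00e-04 and 1.52e-04) and in allograft tumors (adjusted p = 3.24e-04 and 1.36e-04), and neither passed in primary tumors (adjusted p = 0.062 and 0.134).

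Slc22a8, Apom and Prodh2 fell in every tumor group. Slc22a8, an uptake transporter for organic anions, was at 0.0312, 0.207 and 0.0399 FPKM in metastases, 0.121, 0.177 and 0.303 in allograft tumors and 0.441, 98.0 and 22.0 in primary tumors, against 259, 240 and 310 FPKM in proximal tubule cells. It passed the filter only with the proximal tubule libraries, so the filter favored its fall. In primary tumors Slc22a8 had the largest fall of the list, -4.18 ± 1.12 (adjusted p = 0.01). Slc22a8 lost this call in a fit of these groups alone. Its change there was -2.50 without primary tumor 1, -5.55 without primary tumor 2 and -7.54 without primary tumors 2 and 3. Apom, which carries sphingosine 1-phosphate on lipoproteins, averaged 0.682, 0.584 and 21.8 FPKM in metastases, allograft tumors and primary tumors, against 132 FPKM in proximal tubule cells (adjusted p = 1.23e-04, 9.04e-05 and 0.00669). Its change in primary tumors was -3.51 ± 0.87 and ran from -4.66 to -2.40 when 1 library was left out. Prodh2, an enzyme of hydroxyproline breakdown, averaged 0.236, 2.30 and 14.5 FPKM in the same tumor groups, against 80.6 FPKM in proximal tubule cells (adjusted p = 1.51e-05, 5.36e-05 and 0.00264).

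The 2 targets that rose in metastases were F7, the gene of coagulation factor VII, and Apoc2, which activates lipoprotein lipase. F7 was at 7.94, 15.0 and 13.1 FPKM in metastases, at most 0.672 FPKM in allograft tumors and at most 1.65 FPKM in primary tumors, against 0, 0.0861 and 0 FPKM in proximal tubule cells (3.62 ± 0.35, adjusted p = 1.43e-05). It passed the filter only with the metastases, so that its rise there was fixed by the filter. Apoc2 was at 12.5, 15.9 and 15.4 FPKM in metastases, 3.92, 7.09 and 0.586 in allograft tumors and 6.64, 0.197 and 0.702 in primary tumors, against 0, 1.29 and 0 FPKM in proximal tubule cells (3.56 ± 0.72, adjusted p = 0.00137). These libraries also held the lung epithelium and leukocyte markers above, and the part of those cells was not tested.

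**Figure D3:**
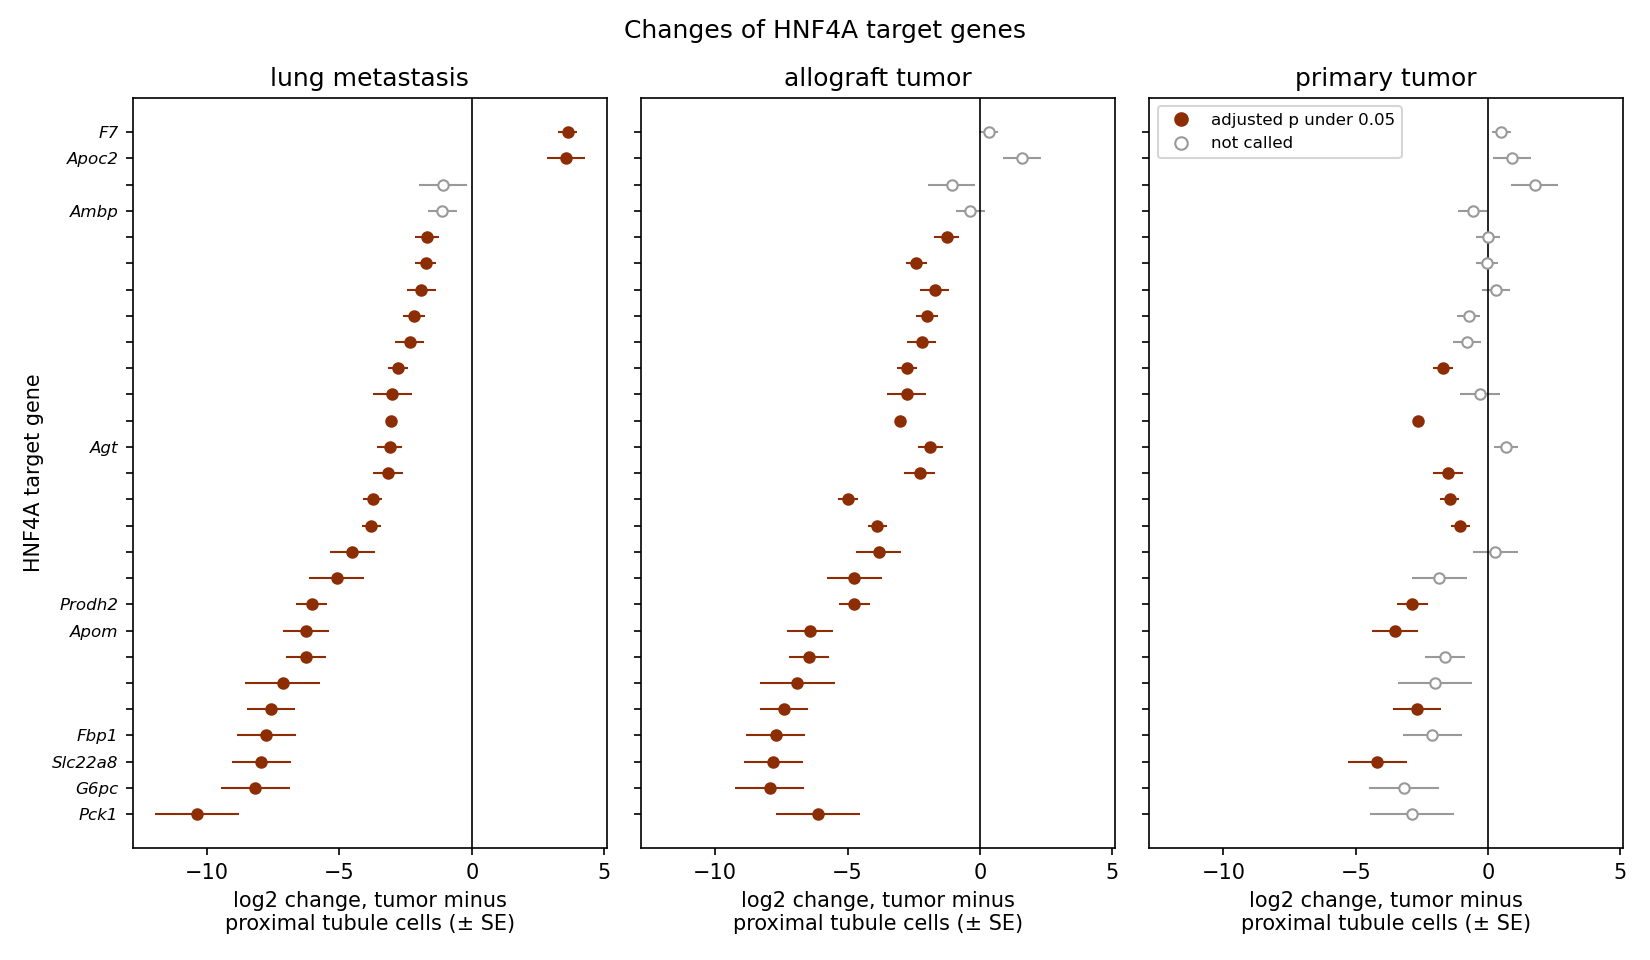
Log2 change ± SE of the 27 tested HNF4A target genes in metastases, allograft tumors and primary tumors against proximal tubule cells, with filled points at an adjusted p under 0.05 and names only for genes described in the text. In metastases 23 genes are called lower and F7 and Apoc2 higher, in allograft tumors 23 are called lower, and in primary tumors 9 are called lower.

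Against primary tumors, 20 of the 27 targets fell in metastases and 2 rose, with a median of -2.76 beside 0.01 over all genes. Of all genes, 9.59% were called lower and 11.3% higher there. In allograft tumors 20 fell and none rose, with a median of -2.55 beside -0.02 over all genes. There 21.1% of all genes were called lower and 20.5% higher. Without targets that passed the filter only with 1 of the compared groups, 19 of 25 fell and 1 rose in metastases. In allograft tumors 19 of 26 fell. Without primary tumors 2 and 3, fewer targets and also fewer of all genes were called in both comparisons. Between allograft tumors and metastases, 2 of 27 were called, both lower in allograft tumors, where 13.3% of all genes were called lower.

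Among coregulators that work with HNF4, the PGC-1 coactivators fell most. Ppargc1a, the coactivator of glucose synthesis and mitochondrial genes, was at 0.939, 0.730 and 0.881 FPKM in metastases, 0.425, 0.462 and 0.757 in allograft tumors and 3.91, 17.3 and 19.4 in primary tumors, against 20.6, 22.8 and 19.5 FPKM in proximal tubule cells. It changed by -3.57 ± 0.43 in metastases (adjusted p = 5.25e-05) and -3.83 ± 0.43 in allograft tumors (adjusted p = 2.91e-05), and by -0.84 ± 0.43 in primary tumors, which did not pass (adjusted p = 0.122). Its relative Ppargc1b changed by -2.32 ± 0.32, -1.84 ± 0.32 and -0.96 ± 0.32 in metastases, allograft tumors and primary tumors (adjusted p = 1.25e-04, 4.89e-04 and 0.0284), and the primary tumor call was lost under 5 of 24 alternatives, among them leaving out primary tumor 1 (adjusted p = 0.0555).

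Counted over the 11 coregulators, 4 fell and none rose in metastases, 6 fell and none rose in allograft tumors, and 1 fell and 1 rose in primary tumors. Of all genes, 14.4%, 16.9% and 4.9% were called lower in these comparisons, so 1 of 11 in primary tumors was near that share. The medians were -0.24, -0.37 and 0.07 beside 0.68, 0.66 and 0.59 over all genes. After TPM rescaling 10, 11 and 11 of them were called lower, so the direction of the weaker members rested on scaling. Of all 16313 genes, 5817, 6908 and 5407 were called lower after that rescaling. Ncoa2 changed by -0.58 ± 0.14 in metastases (adjusted p = 0.00342) and -0.69 ± 0.14 in allograft tumors (adjusted p = 0.00113). Ncoa1 was called lower in allograft tumors alone of the 3 groups, at -0.75 ± 0.19 (adjusted p = 0.00534), and Crebbp was called lower in metastases and allograft tumors, at -0.58 ± 0.20 and -0.52 ± 0.20 (adjusted p = 0.0232 and 0.0349), each lost under 4 of 24 alternatives. Ncoa3 was called higher in primary tumors, at 0.39 ± 0.13 (adjusted p = 0.0318), with the opposite sign after 3 of the rescalings. Ncor1, a corepressor and the most abundant member, averaged 101, 99.5 and 127 FPKM in metastases, allograft tumors and primary tumors, against 113 FPKM in proximal tubule cells, and was not called (adjusted p = 0.454, 0.383 and 0.455).

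Within the nuclear receptor family, Hnf4a ranked 45th of 49 by mean FPKM in metastases, 38th in allograft tumors and 1st in primary tumors, against 1st in proximal tubule cells. By library it ranked 14th, 1st and 1st in primary tumors 1 to 3. Hnf4g ranked 35th, 35th and 30th in the same tumor groups, against 26th in proximal tubule cells. Nr1h4, the bile acid receptor FXR, came next to Hnf4a in proximal tubule cells at 68.9 FPKM, and then Vdr, the vitamin D receptor, at 60.4 FPKM and Nr3c1, the glucocorticoid receptor, at 42.7 FPKM. Nr3c1 led the family in metastases at 46.1 FPKM and in allograft tumors at 31.6 FPKM. It was called lower in allograft tumors (-0.43 ± 0.15, adjusted p = 0.0272, lost under 4 of 24 alternatives) and not called in metastases (0.11 ± 0.15, adjusted p = 0.535).

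Of the 47 other receptors 38 were tested. Against proximal tubule cells 15 fell and 8 rose in metastases, 20 fell and 7 rose in allograft tumors, and 7 fell and 11 rose in primary tumors. Of all genes, 14.4% were called lower and 54% higher in metastases, 16.9% and 52.2% in allograft tumors and 4.9% and 48.2% in primary tumors. Leaving out receptors that passed the filter only with 1 of the compared groups, 13 of 33 fell and 5 rose in metastases, 18 of 35 fell and 6 rose in allograft tumors, and 6 of 35 fell and 10 rose in primary tumors. The medians were -0.25, -0.48 and 0.02. TPM rescaling gave 27 lower and 6 higher, 29 lower and 3 higher, and 21 lower and 2 higher. Of all 16313 genes it called 5817, 6908 and 5407 lower and 4511, 3503 and 3028 higher in these comparisons. Nr1h4 was at 3.38, 0.753 and 54.1 FPKM in metastases, allograft tumors and primary tumors, and changed by -4.04 ± 0.64 and -5.33 ± 0.64 in the first 2 (adjusted p = 2.89e-04 and 4.35e-05). Ppara, the fatty acid receptor, changed by -4.74 ± 0.63, -4.83 ± 0.63 and -2.12 ± 0.63 in metastases, allograft tumors and primary tumors (adjusted p = 9.40e-05, 7.04e-05 and 0.0166). Vdr and Esrrg, an orphan receptor of mitochondrial genes, changed by -4.05 ± 0.48 and -4.18 ± 0.33 in metastases.

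Rarg and Pparg stood out among the receptors that rose. Rarg, a retinoic acid receptor, was at 11.5, 9.71 and 11.2 FPKM in metastases, 9.14, 12.7 and 9.65 in allograft tumors and 11.3, 6.54 and 14.7 in primary tumors, against 1.80, 1.59 and 1.95 FPKM in proximal tubule cells. Its changes were 2.09, 2.04 and 2.03, each ± 0.25, and held under every rescaling. Pparg, the receptor of fat cell genes that macrophages and lung cells also make, averaged 8.80, 7.31 and 3.84 FPKM in metastases, allograft tumors and primary tumors, against 0.341 FPKM in proximal tubule cells. Its primary tumor call was lost after TPM rescaling (adjusted p = 0.0552) and with quantile normalization. Rarb was called higher in primary tumors, at 1.68 ± 0.21 (adjusted p = 1.61e-04). So was the mineralocorticoid receptor gene Nr3c2, known from the distal nephron, at 1.09 ± 0.28 (adjusted p = 0.00872). Nr3c2 lost this call under 5 of 24 alternatives. These were TPM rescaling (adjusted p = 0.731), median-of-ratios scaling, quantile normalization, and leaving out the 50 most abundant genes or primary tumors 2 and 3.

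**Figure D4:**
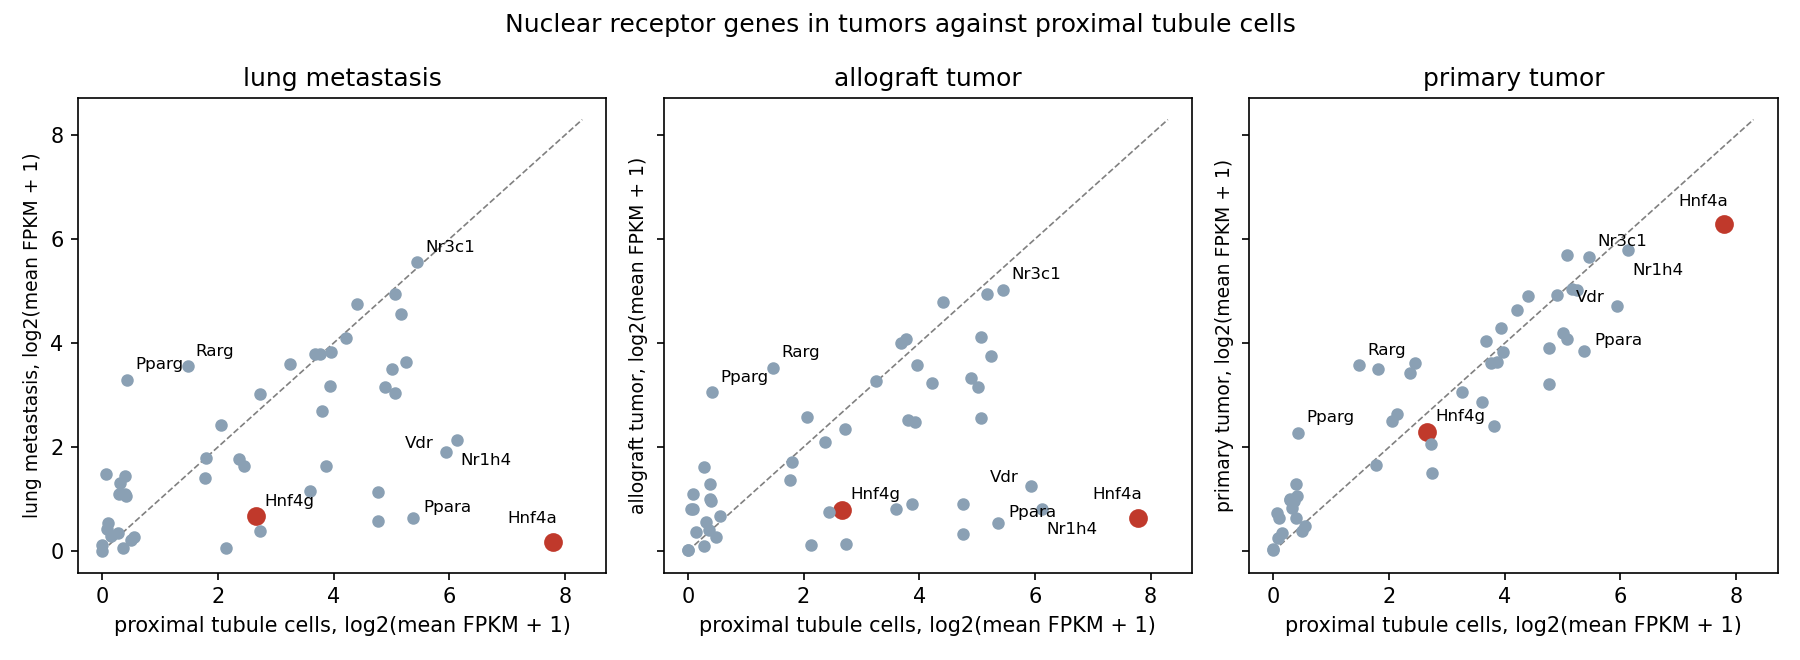
Mean level of 49 nuclear receptor genes in metastases, allograft tumors and primary tumors (vertical axes) against proximal tubule cells (horizontal axis), in log2(mean FPKM + 1), with the HNF4 genes in red and a dashed line of equal levels. Hnf4a is the rightmost point in each panel, near 0 in metastases and allograft tumors and the highest point in primary tumors.

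Of 9 other factors that act with HNF4A in the liver, 5 were tested, and 4 rose in metastases, 2 in allograft tumors and 2 in primary tumors, where 54%, 52.2% and 48.2% of all genes were called higher. Foxa1 and Foxa2 passed the filter only with the metastases, so their rise there was fixed by it, and the shares in the other tumors were not above that of all genes. Cebpb, a factor of the acute phase and of macrophages, averaged 62.5, 34.0 and 15.0 FPKM in metastases, allograft tumors and primary tumors, against 6.73 FPKM in proximal tubule cells (adjusted p = 1.10e-05, 6.57e-05 and 0.0129). Its primary tumor value had the opposite sign, at -0.01, after TPM rescaling. Gata4 averaged 1.04, 1.20 and 0.830 FPKM in metastases, allograft tumors and primary tumors, and each proximal tubule library listed it at 0. Foxa1 and Foxa2, which are also factors of lung epithelium, averaged 2.86 and 8.88 FPKM in metastases, where lung epithelium markers were high, and each proximal tubule library listed them at 0. Foxa1 and Foxa2 averaged at most 0.367 FPKM in the other tumor groups.

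At the Hnf4a locus, Hnf4aos was at 0, 0.147 and 0 FPKM in metastases, 0.136, 0 and 0 in allograft tumors and 0.415, 23.0 and 6.83 in primary tumors, against 12.3, 10.6 and 13.6 FPKM in proximal tubule cells. It fell in metastases (-3.64 ± 0.75, adjusted p = 0.00146) and allograft tumors (-3.65 ± 0.75, adjusted p = 0.00136), and in primary tumors it gave -1.03 ± 0.75 (adjusted p = 0.265) with overlap. The sources used here do not give whether counting used the strand, so reads of Hnf4a and its antisense gene where they overlap cannot be told apart. No other tested gene within 100 kb was called lower than in proximal tubule cells. Fitm2, which lies 34179 bases away, averaged 8.48, 9.36 and 11.6 FPKM in metastases, allograft tumors and primary tumors, against 10.2 FPKM in proximal tubule cells (adjusted p = 0.541, 0.692 and 0.872). Ttpal, 29404 bases away on the other side, averaged 12.3, 9.92 and 10.3 FPKM in the tumor groups, against 4.63 FPKM, and Serinc3 averaged 149, 112 and 117 FPKM, against 60.1 FPKM. Oser1 averaged 23.3, 27.3 and 16.0 FPKM and Pkig 32.9, 32.8 and 23.4 FPKM, against 12.8 and 16.3 FPKM in proximal tubule cells. All 4 were called higher in metastases and allograft tumors, where 54% and 52.2% of all genes were, and these genes lost the call or turned to the opposite sign under TPM rescaling. R3hdml, 4196 bases upstream, was at 1.02, 0.680 and 0.649 FPKM in metastases, at most 0.251 in allograft tumors and 0, 2.20 and 1.48 in primary tumors, against at most 0.161 FPKM in proximal tubule cells. It was called higher in primary tumors (0.93 ± 0.34, adjusted p = 0.0432) and not in metastases (adjusted p = 0.0728). 0610039K10Rik, 71940 bases away, averaged 1.17, 1.78 and 0.664 FPKM in the tumor groups, against 0.126 FPKM in proximal tubule cells, and was called higher in each. No gene of the table lay within 100 kb of Hnf4g.

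Among the 5 genes whose level was most like that of Hnf4a over the 12 libraries, by Pearson correlation of log2(FPKM + 1) over 11458 genes with a mean of at least 5 FPKM, were Mgam, Cyp2j11, Aadat and Abcc2 (r = 0.997 to 0.998). Mgam encodes a disaccharidase of the brush border and Abcc2 an organic anion pump. Over the 9 tumor libraries they were Tmigd1, Mgam, Vil1, Aadat and Guca2b (r = 0.997 to 0.998). For Hnf4g they were Rtkn, Slc13a1, Rnf183, Emx1 and Slc10a2 over 12 libraries (r = 0.971 to 0.975), where Slc13a1 carries sulfate and Slc10a2 bile acids. Over the 9 tumor libraries they were Rnf183, Zdhhc9, Mapk4, Cmtm4 and Adra2b (r = 0.967 to 0.979). These values describe the order of libraries that share groups and are not tests.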

How the data were processed

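Bulk RNA-seq of 12 mouse libraries was used as deposited by the authors, in FPKM (fragments scaled by transcript length and library total) for 24432 genes. The submitters' processing notes name Salmon, bcl2fastq 2.17.1.14, GRCm38 and mm10. The sources used here do not give gene lengths, strand, the version of Salmon or depth. Depth was estimated from the smallest steps of genes with 1 transcript.

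Genes with at least 1 FPKM in at least 3 libraries (16313) were fitted with limma 3.58.1 in R 4.3.3 on log2(FPKM + 1), the pseudocount being 1, with 4 groups, a mean-variance trend and no covariates. There were 6 comparisons, with Benjamini-Hochberg adjustment over all genes and calls at 0.05. The procedure was tested on simulated data. The log2 ratio was tested by exact permutation of the group labels over samples. Members and gene lists were chosen with earlier results of these data known. By rule, each list gave per comparison with proximal tubule cells its 4 most changed called members in the commoner direction, 2 in the opposite one and its most abundant member, beside the 3 receptors highest in proximal tubule cells, neighbours within 100 kb and the 5 most alike genes. Agt, Ambp, Pdzk1, Aqp1, Mir6236, Xist, Ddx3y and the untested targets were chosen after their values were seen. Some genes that the rule names are not reported here. Alternatives were other pseudocounts, filters and scalings, array weights, fits of 2 groups, a replicate block and leaving out libraries.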

Additional observations from a re-analysis of the deposited data

How the results depend on the processing

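Hnf4a against proximal tubule cells kept its direction and call in metastases and allograft tumors under all 24 alternatives, as did the counts of called targets (25 to 26 and 21 to 25 when 1 library was left out). In primary tumors Hnf4a lost its call with only the groups compared (-2.28) and ran from -3.22 to -1.19 when 1 library was left out. Hnf4g in primary tumors passed after TPM rescaling (-1.31), quantile normalization (-1.36) or median-of-ratios scaling (-0.97), with array weights (-0.53) and without the 50 most abundant genes (-0.76), and ran from -0.74 to -0.22 when 1 library was left out. Without primary tumors 2 and 3 Hnf4g was not called in metastases (-1.16) or allograft tumors (-1.08) against primary tumors. Between allograft tumors and metastases the uncalled Hnf4g difference turned to -0.026 after TPM rescaling, -0.0047 without the 50 most abundant genes and -0.08 with array weights, and ran from -0.17 to 0.26 when 1 library was left out. A pseudocount of 5 or 0.1 moved Hnf4g in metastases against proximal tubule cells to between -0.88 and -2.98.

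Called targets in primary tumors against proximal tubule cells numbered 9 (6 to 17 when 1 library was left out). They numbered 18 after TPM rescaling, 14 with quantile normalization and 17 with array weights, and were also more without primary tumors 2 and 3. More of all genes were called lower under each of these alternatives as well. Against primary tumors, 22 were called in metastases and 7 with only the groups compared (10 to 25). In allograft tumors 20 were called and 8 with only the groups compared (10 to 23). In both comparisons fewer were called without primary tumors 2 and 3. Fewer of all genes were called in these fits as well. Between allograft tumors and metastases 2 were called, 5 with a pseudocount of 0.1, 1 after TPM rescaling, 8 with array weights, 6 with only the groups compared and 7 without primary tumors 2 and 3 (1 to 5). The log2 ratio of Hnf4a to Hnf4g, with a pseudocount added, kept its call under the 16 alternatives run for it. These left out the other scalings and the fit without primary tumors 2 and 3. F was 20.3 to 101 when 1 library was left out. Each alternative added a pseudocount, so none can by itself tell unequal falls from a shared fall.

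Against proximal tubule cells, TPM rescaling turned Serinc3 to -0.22 in primary tumors and -0.51 in allograft tumors, Ttpal to -0.27 in allograft tumors, Oser1 to -0.19 in metastases and -0.33 in allograft tumors, Pkig to -0.57 in primary tumors, -0.045 in metastases and -0.39 in allograft tumors, Cebpb to -0.01 and Ncoa3 to -0.66 in primary tumors. Median-of-ratios scaling turned Pkig to -0.15 and Ncoa3 to -0.24 in primary tumors, and quantile normalization turned Ncoa3 to -0.07. The cause was not tested. Pairing of libraries by replicate number was not seen. None of 18 pairs with the same number had a correlation of deviations over 0.1 (-0.0433 to 0.0977). Such weak correlations between different tissues cannot show that libraries with the same number came from separate animals. By Xist and Ddx3y, primary tumors 2 and 3 differed in sex from the metastases and proximal tubule libraries of the same number. Those pairs therefore came from different animals, and the replicate block joins them all the same. For the other pairs this is not known. With the number as a replicate block, the changes of Hnf4a and Hnf4g kept their calls, at -2.28 (adjusted p = 0.0199) and -0.42 (adjusted p = 0.283) in primary tumors against proximal tubule cells. Of the named genes Ncoa3 lost its call in allograft tumors (-0.34, adjusted p = 0.0596), and the ratio gave p = 0.00521 in an exact permutation test within blocks.

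Depth limits the lowest values, since Hnf4a in metastases rests on few fragments and the sorted libraries are shallower.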
